A study of Homo sapiens with 30 samples.

Results

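The 51 genes described here encode the machinery that licenses origins of DNA replication and drives the replication fork. They were chosen by name and known role, with earlier results of these data known. All 51 were found among the 39359 genes of the count table and passed the filter on low counts. By role they comprise the 6 subunits of the MCM2-7 helicase, MCM8 and MCM10, the 6 subunits of the origin recognition complex, CDC6, CDT1 and the CDT1 inhibitor GMNN, 9 genes of origin firing, 9 of the polymerases and primase, 8 of the sliding clamp, its loader, the flap nuclease and the ligase, 3 of the single-strand binding protein RPA, and 5 of chromatin assembly and fork protection.

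Origins are licensed in G1, when the origin recognition complex, CDC6 and CDT1 load the MCM2-7 helicase onto DNA, and geminin, the product of GMNN, blocks CDT1 after S phase has begun. The kinase CDC7 with its partner DBF4, together with TICRR, TOPBP1, CDC45 and the GINS complex, turns the loaded helicase into an active fork, where PCNA clamps the polymerases to DNA. Many of these genes are transcribed under the control of E2F factors as cells approach S phase. The tumour suppressor p53 activates CDKN1A, whose product p21 inhibits cyclin-dependent kinases and thereby keeps E2F genes in check, and PCNA is a known direct p53 target in human cells.

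The cells were H1299, a lung carcinoma line that lacks p53, so that p53 came only from the transfected vector. Cells carried pGFP, which expresses GFP alone and is called GFP below, or a vector for wild type p53, for the RW mutant p53 (tryptophan in place of arginine at codon 248), or for p53 O6-meG, which has the wild type sequence and carries O6-methylguanine at that codon, on the strand that is transcribed. The p53 TM cells (TM stands for transcriptional mutagenesis) carried the O6-meG vector and were the only ones given O6-bzG, at 10 µM, which inactivates the repair protein AGT, so TM and the agent cannot be told apart in them. The vectors were transfected transiently and drove expression from TRE-tight promoters, GFP-positive cells were sorted at 6 h or 24 h after transfection, and each of the 10 groups had 3 libraries of total RNA. The labels of 2 libraries at 6 h contradict themselves as to whether they are p53 O6-meG or p53 TM. They were put in neither group, which leaves 2 libraries in each of those groups at 6 h and 28 in the fit. Of these 2, the library whose title begins as p53 O6-meG held CDKN1A at 250 CPM (counts scaled to the library's size by TMM), and the libraries of that group without a conflict held 269 and 261 CPM. The library whose title begins as p53 TM held 50.2 CPM, and the p53 TM libraries without a conflict held 65.9 and 57.9 CPM. The CDKN1A levels thus lie with the first part of the titles and against the genotype field, but groups were not assigned from measured values.

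Libraries held between 32302699 and 71950532 reads counted on genes, with a median of 44424643, and no member fell below 450 reads in any library (GINS3). The line's own markers KRT8, KRT18 and VIM were read in every library, while the leukocyte gene PTPRC had 0 reads in 24 of the 30 libraries and at most 2 in the others. With wild type p53 at 24 h CDKN1A rose by 3.68 on the log2 scale (edgeR adjusted p = 5.4e-14). These are bulk libraries, so fewer cells in S phase and less RNA per cell cannot be told apart.

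The 250 bases before the start site (RefSeq, GRCh38.p14) were at hand for 45 of the 51 members, the others being MCM4, MCM5, GINS4, POLD3, RPA2 and RPA3. Windows of 4 members that were higher with wild type p53 and of 2 that were lower are shown, because the results below set these against each other. Capitals mark an exact E2F word (TTTCCCGC, TTTCGCGC, TTTGCCGC or TTTGGCGC, on either strand) or a p53 site, which was 20 bases long and made of 2 adjoining decamers with at most 2 mismatches to the p53 consensus.
PCNA, chr20:5119959-5120208, minus strand: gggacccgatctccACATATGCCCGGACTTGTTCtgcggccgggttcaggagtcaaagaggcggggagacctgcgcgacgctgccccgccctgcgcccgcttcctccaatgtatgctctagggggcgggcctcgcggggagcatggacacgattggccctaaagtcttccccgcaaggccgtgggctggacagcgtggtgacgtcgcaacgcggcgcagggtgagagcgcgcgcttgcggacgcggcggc
LIG1, chr19:48170345-48170594, minus strand: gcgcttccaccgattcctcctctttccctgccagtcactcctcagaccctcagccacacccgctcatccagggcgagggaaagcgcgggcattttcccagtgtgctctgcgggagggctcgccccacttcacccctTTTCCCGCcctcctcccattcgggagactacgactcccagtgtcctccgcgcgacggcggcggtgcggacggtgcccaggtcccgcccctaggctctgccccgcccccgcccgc
ORC4, chr2:148020738-148020987, minus strand: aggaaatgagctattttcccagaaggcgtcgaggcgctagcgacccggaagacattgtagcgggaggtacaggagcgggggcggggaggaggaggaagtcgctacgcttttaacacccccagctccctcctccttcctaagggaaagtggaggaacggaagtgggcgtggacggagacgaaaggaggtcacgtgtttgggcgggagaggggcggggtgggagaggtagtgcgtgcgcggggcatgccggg
GMNN, chr6:24774687-24774936, plus strand: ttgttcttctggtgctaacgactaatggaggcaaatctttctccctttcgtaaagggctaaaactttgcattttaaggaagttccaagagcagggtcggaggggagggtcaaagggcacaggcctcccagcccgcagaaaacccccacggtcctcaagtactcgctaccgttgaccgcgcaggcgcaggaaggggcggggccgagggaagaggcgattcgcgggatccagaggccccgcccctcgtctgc
MCM3, chr6:52284743-52284992, minus strand: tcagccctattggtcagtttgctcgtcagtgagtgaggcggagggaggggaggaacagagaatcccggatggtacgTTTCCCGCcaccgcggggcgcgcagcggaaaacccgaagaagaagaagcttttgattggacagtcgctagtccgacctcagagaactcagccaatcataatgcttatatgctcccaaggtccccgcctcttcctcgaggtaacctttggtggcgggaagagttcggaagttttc
CDC6, chr17:40287629-40287878, plus strand: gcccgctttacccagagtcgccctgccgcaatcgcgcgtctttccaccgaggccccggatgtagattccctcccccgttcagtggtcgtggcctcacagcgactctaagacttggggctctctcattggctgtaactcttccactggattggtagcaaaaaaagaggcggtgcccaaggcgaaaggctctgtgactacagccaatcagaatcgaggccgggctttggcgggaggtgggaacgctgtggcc
The p53 site in the PCNA window began 236 bases before the start, and the E2F words of LIG1 and MCM3 began 114 and 174 bases before theirs. An E2F word was found in 12 of the 45 member windows (26.7%) and in 2.87% of the 27305 windows of all genes in the table. PCNA was the only member with the p53 site, which 0.557% of all windows held. ORC4, GMNN and CDC6 held none of these letters, which says only that they were not in this window.

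At 24 h wild type p53 lowered most of the replication genes and raised 5 of them. Against GFP, 31 of the 51 members fell and 5 rose (edgeR quasi-likelihood test, adjusted p under 0.05), and the remaining 15 were not called. With the replicate number as a block within each time, which pairs the 24 h libraries, 37 members fell and 5 rose. The 6 added calls were MCM7, POLA2, POLD1, POLE2, RPA3 and TIMELESS, and their blocked p is given with each below. Over all 21335 genes tested, 14.5% were lower and 20.5% were higher in this comparison without the block. With the block 4612 of these genes were lower and 5707 were higher. The median log2 fold change was −0.35 over the members and 0.008 over all genes. No member changed by 2-fold or more in either direction. In 32 members every wild type library lay below every GFP library, as it did in 19.7% of all genes, and in 5 every wild type library lay above, as in 23.9% of all genes. Among 25 other replication genes counted as a list, 15 fell and none rose, among them MTBP, the partner of TICRR, at −0.94.

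**Figure D1:**
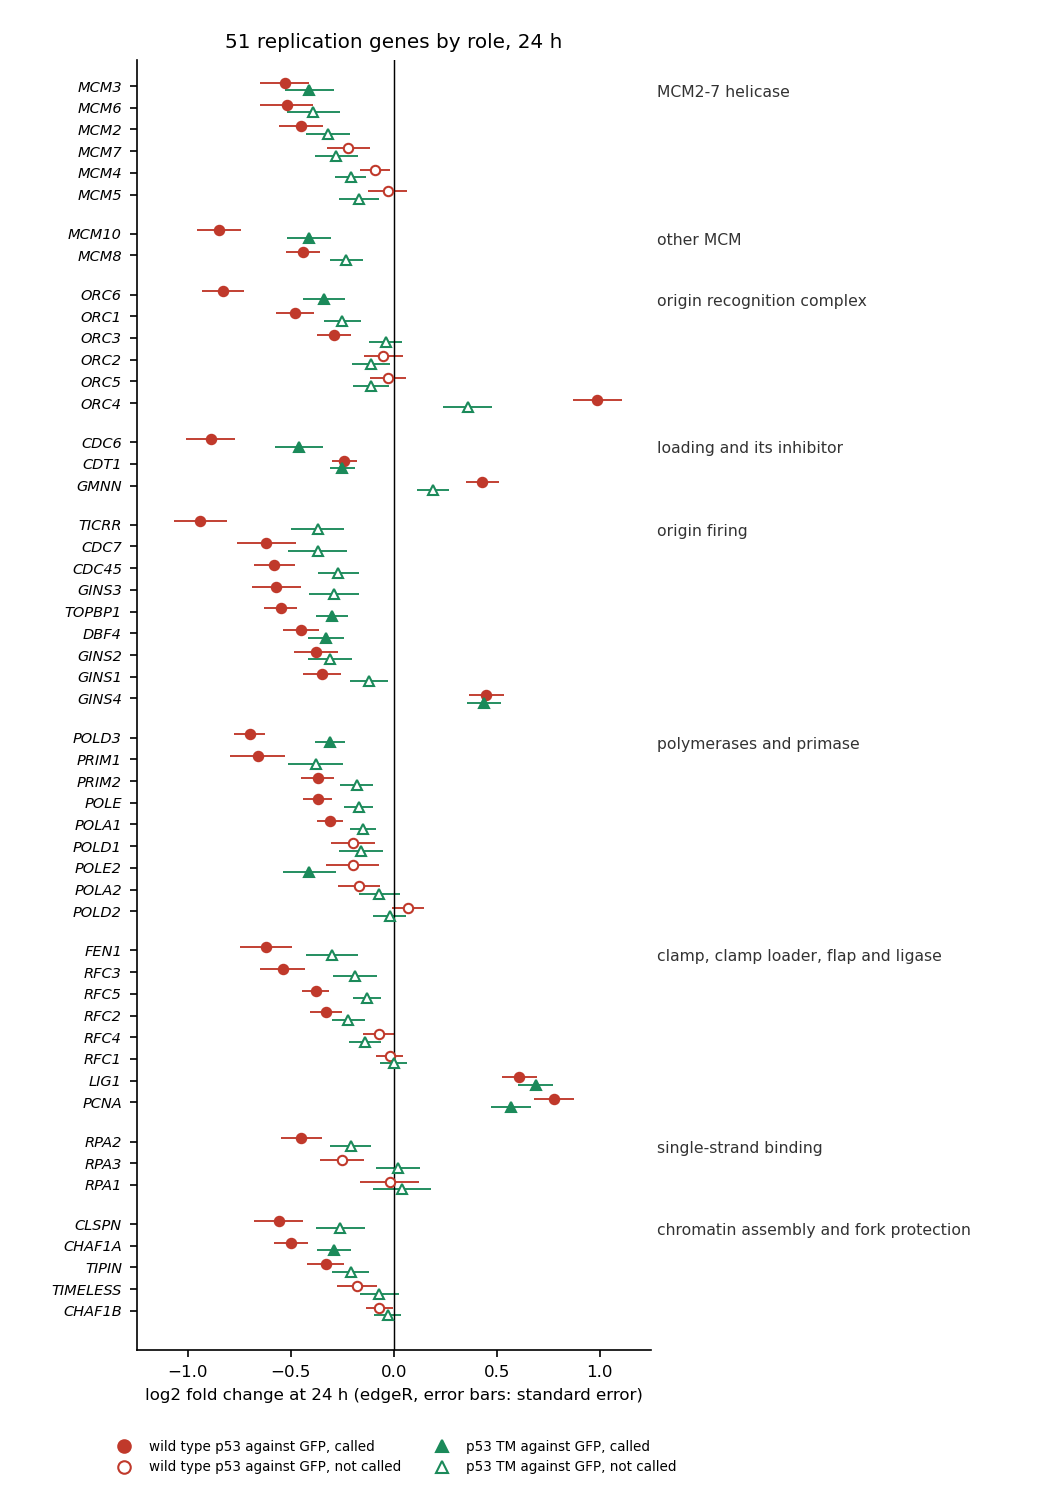
Log2 fold change against GFP at 24 h (x axis) of each of the 51 members (y axis, grouped by role), with wild type p53 as circles and p53 TM as triangles. Bars are the standard error from the edgeR fit of 28 libraries, with 3 libraries in each group shown. Filled symbols mark an edgeR adjusted p under 0.05 without the replicate block. Most circles lie left of 0, and ORC4, PCNA, LIG1, GINS4 and GMNN lie right of it.

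Of the 9 origin firing genes 8 fell and GINS4 rose. TICRR, which recruits TOPBP1 so that the kinase signal reaches the helicase, stood at 56.0, 44.1 and 47.1 CPM in the 3 GFP libraries and at 23.6, 23.1 and 29.8 CPM with wild type p53. The groups did not overlap, and this was the lowest log2 fold change of any member, −0.94 ± 0.13 (SE, edgeR adjusted p = 2e-06). The other firing genes that fell ranged from CDC7 (−0.62), the kinase that fires origins, through CDC45 (−0.58), TOPBP1 (−0.55) and DBF4 (−0.45), to GINS1 (−0.35).

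GINS4 is a subunit of the same 4-member complex as GINS1, GINS2 and GINS3, all of which fell. Its level was 47.7, 46.6 and 42.8 CPM with GFP and 68.6, 62.3 and 56.3 CPM with wild type p53. It rose by 0.45 ± 0.083 on the log2 scale (SE, edgeR adjusted p = 0.00011), whereas GINS2 and GINS3 stood at −0.38 and −0.57. An antisense RNA covers 21.0% of the exon bases of GINS4 but had only 9 reads in all 30 libraries.

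Of the loading factors, CDC6 and CDT1 fell and their opponent GMNN rose. CDC6, the ATPase that closes the origin recognition complex around DNA, went from 67.2, 71.9 and 64.7 CPM with GFP to 30.7, 39.1 and 39.9 CPM with wild type p53. The highest wild type library was well below the lowest GFP library (log2 fold change −0.89 ± 0.12 SE, edgeR adjusted p = 1.1e-06). CDT1 changed less, by −0.24. GMNN was at 84.6, 90.9 and 84.4 CPM with GFP and at 126, 115 and 109 CPM with wild type p53. It rose by 0.43 ± 0.079 (log2, SE, edgeR adjusted p = 0.00011), with no overlap between the groups.

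The origin recognition complex split within itself. ORC4, a subunit of the ATPase ring, was at 64.2, 71.6 and 67.0 CPM with GFP and at 149, 143 and 111 CPM with wild type p53. Its rise of 0.99 ± 0.12 (log2, SE, edgeR adjusted p = 2.8e-07) was the largest rise of any member. ORC6, the smallest subunit, was at 67.5, 57.1 and 56.2 CPM with GFP and at 32.9, 29.2 and 39.5 CPM with wild type p53 (log2 fold change −0.83 ± 0.10 SE, edgeR adjusted p = 4.2e-07). ORC1 (−0.48) and ORC3 (−0.29) also fell, while ORC2 (−0.05) and ORC5 (−0.03) were not called. On the opposite strand ORC4 shares 4.83% of its exon bases with ACVR2A and 1.76% with MBD5, and the strand setting of the counting was not stated. These neighbours stood at −0.17 ± 0.11 and 0.12 ± 0.17 (log2, SE) in the same comparison, and neither was called (edgeR adjusted p = 0.24 and 0.65).

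Of the 6 helicase subunits, MCM2, MCM3 and MCM6 fell and MCM4, MCM5 and MCM7 were not called. MCM3 was at 200, 210 and 220 CPM with GFP and at 117, 152 and 168 CPM with wild type p53, a log2 fold change of −0.53 ± 0.12 (SE, edgeR adjusted p = 0.00098). MCM2 (−0.45) and MCM6 (−0.52) were close to it. MCM7, at −0.22 ± 0.10 (SE), and MCM4, at −0.09 ± 0.074 (SE), did not pass the test (edgeR adjusted p = 0.11 and 0.4). With the block MCM7 was called lower (edgeR adjusted p = 0.00025), its differences by replicate number being −0.32, −0.24 and −0.12, and MCM4 and MCM5 were not. MCM10, which is no part of the ring and helps the active helicase open DNA, had a larger log2 fold change than any ring subunit. Its level was 59.4, 62.3 and 59.0 CPM with GFP and 28.5, 33.6 and 38.4 CPM with wild type p53 (log2 fold change −0.85 ± 0.11 SE, edgeR adjusted p = 6.8e-07).

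Among the polymerases and primase, 5 of 9 genes fell and none rose. POLD3, an accessory subunit of polymerase delta, showed little spread between replicates, at 43.6, 43.4 and 42.8 CPM with GFP and at 26.4, 25.8 and 27.7 CPM with wild type p53. It fell by 0.70 ± 0.074 on the log2 scale (SE, edgeR adjusted p = 3.8e-08). PRIM1, the catalytic subunit of primase, followed at −0.66, and POLD1 (−0.20), POLD2 (0.07), POLE2 (−0.20) and POLA2 (−0.17) were not called. With the block POLD1, POLE2 and POLA2 were called lower (edgeR adjusted p = 0.0026, 0.024 and 0.0028). PRIM1 shares 3.99% of its exon bases on the opposite strand with HSD17B6, which had 9445 reads against 94717 for PRIM1 and stood at −0.54. It shares 4.2% on its own strand with NACA, which had 1036521 reads and stood at 0.09 ± 0.081 (log2, SE, edgeR adjusted p = 0.43).

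The clamp and the ligase went up, while RFC2, RFC3 and RFC5 of the clamp loader and the flap nuclease went down. PCNA, the sliding clamp, was at 156, 190 and 171 CPM with GFP and at 308, 301 and 280 CPM with wild type p53, a rise of 0.78 ± 0.097 (log2, SE, edgeR adjusted p = 4.1e-07). LIG1, which seals Okazaki fragments, was at 49.7, 56.5 and 53.1 CPM with GFP and at 82.9, 84.9 and 75.3 CPM with wild type p53, a rise of 0.61 ± 0.085 (log2, SE, edgeR adjusted p = 2.5e-06). Both genes were separated from GFP by a wide gap. FEN1, which trims the flaps that LIG1 then seals, fell by 0.62, and the loader subunits RFC2, RFC3 and RFC5 stood at −0.33, −0.54 and −0.38. RFC1 (−0.02) and RFC4 (−0.07) were not called.

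At the fork itself, RPA2, CLSPN, CHAF1A and TIPIN fell. RPA2, a subunit of the single-strand binding protein, was at 113, 115 and 118 CPM with GFP and at 76.3, 84.4 and 93.3 CPM with wild type p53 (log2 fold change −0.45 ± 0.10 SE, edgeR adjusted p = 0.00085). CLSPN, the adaptor that carries the checkpoint signal from stalled forks, was at 105, 109 and 102 CPM with GFP and at 66.2, 65.9 and 82.1 CPM with wild type p53 (−0.56 ± 0.12 SE, edgeR adjusted p = 0.00064). In both genes the groups were apart. RPA1 (−0.02), RPA3 (−0.25), TIMELESS (−0.18) and CHAF1B (−0.07) were not called. With the block RPA3 and TIMELESS were called lower (edgeR adjusted p = 0.0022 and 0.037).

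Of the members with a promoter window, an E2F word was present in 9 of the 29 that fell, in 1 of the 4 that rose and in 2 of the 12 that were not called, by the fit without the block. CDC6, TICRR, MCM10 and ORC6, which were the lowest 4 by log2 fold change, had none of the exact words, and LIG1, which rose, had 1. Sequences 1 base off these words were not counted. The letters CCAAT were in 18 of the 29 that fell, these 4 among them. They were in 1 of the 4 that rose, in 6 of the 12 not called and in 33.2% of all windows. A CHR word (TTTGAA or TTCGAA) was in 1 of the 45 member windows and in 14.3% of all windows.

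**Figure D2:**
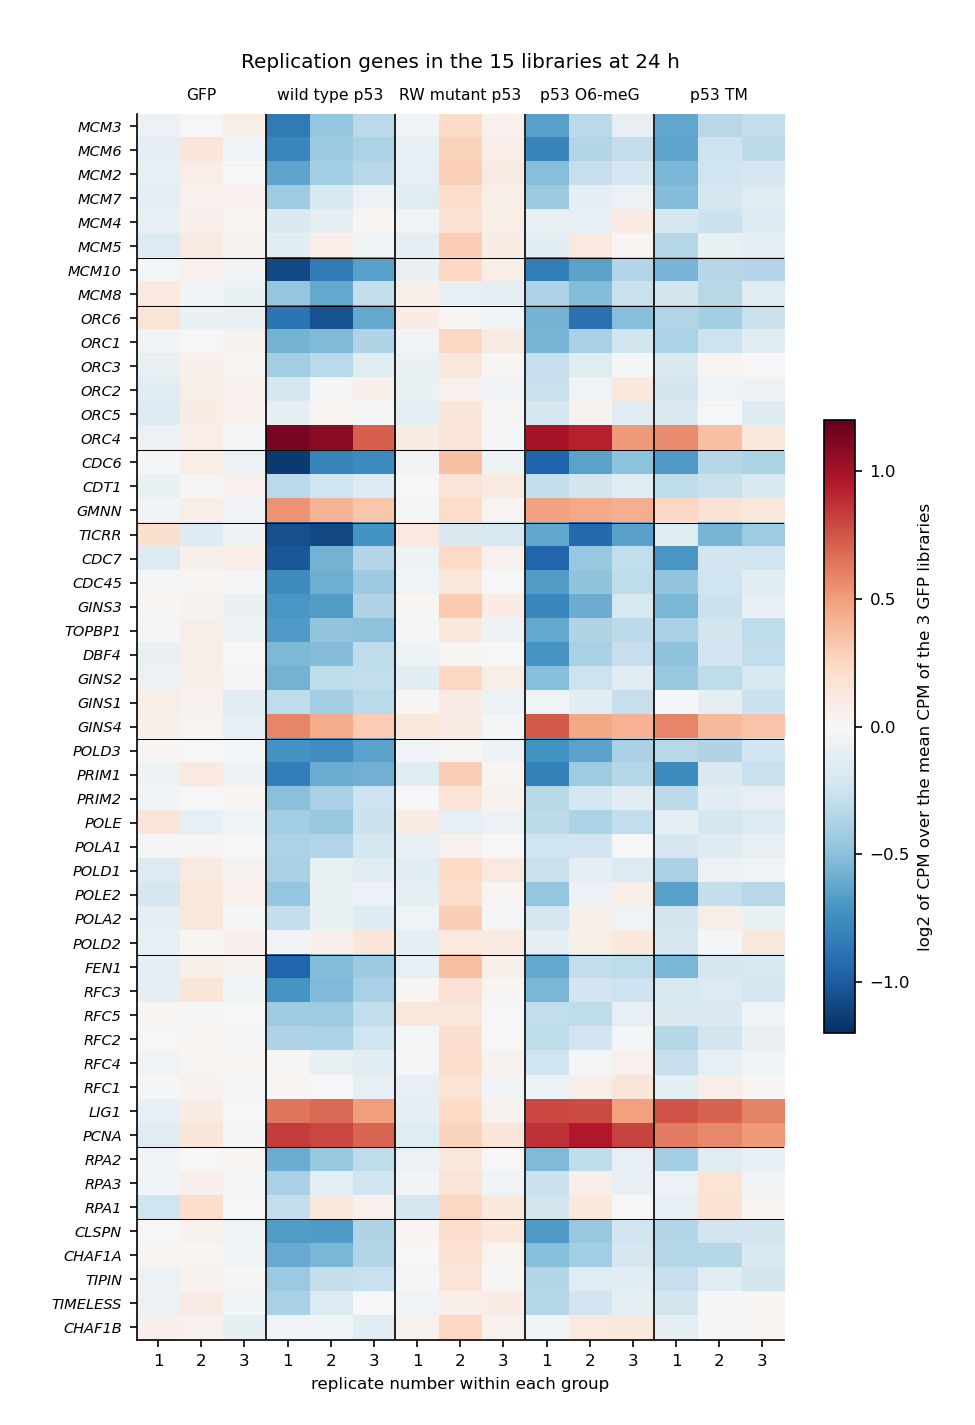
Log2 ratio of the CPM of each member (rows, by role) in each of the 15 libraries at 24 h (columns, 3 a group) to the mean CPM of the 3 GFP libraries. Blue is lower and red is higher. Wild type p53 and p53 O6-meG columns are blue in most rows with 5 red rows, RW mutant p53 is near white, and p53 TM is paler than wild type.

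At 6 h 4 of these rises were already present, and 1 fall was called. Against GFP, wild type p53 raised 4 members (GMNN, GINS4, PCNA and LIG1) and lowered 1, POLD3. Over all genes 8.68% were higher and 1.59% lower at that time, and the members' counts were near these shares. The members' median log2 fold change was −0.02, against 0.021 over all genes. With DESeq2's Wald test 3 members were lower, and the share of all called genes that were higher went from 84.5% to 73.0%.

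The 4 early risers, taken because they were called higher, were clear of GFP in every library. The share of all genes so separated at 6 h was not counted. PCNA was at 262, 258 and 249 CPM with GFP and at 399, 394 and 347 CPM with wild type p53 (log2 fold change 0.57, edgeR adjusted p = 0.00013). GINS4 was at 54.6, 52.5 and 52.6 CPM with GFP and at 80.0, 79.6 and 86.6 CPM with wild type p53 (0.63, edgeR adjusted p = 4.4e-06). LIG1 was at 67.1, 67.9 and 62.5 CPM with GFP and at 95.9, 90.0 and 94.6 CPM with wild type p53 (0.51, edgeR adjusted p = 0.0001). GMNN, the inhibitor of CDT1, showed the same separation, at 122, 109 and 110 CPM with GFP and at 161, 151 and 138 CPM with wild type p53 (0.39, edgeR adjusted p = 0.00093). ORC4 was at 78.8, 74.5 and 76.3 CPM with GFP and at 98.0, 104 and 93.5 CPM with wild type p53, and at 0.36 it narrowly missed the threshold (edgeR adjusted p = 0.051).

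The only fall called at 6 h was small. POLD3 was at 63.5, 61.3 and 62.4 CPM with GFP and at 55.2, 51.2 and 52.4 CPM with wild type p53 (log2 fold change −0.24, edgeR adjusted p = 0.034). This call was lost when GFP replicate 1, 2 or 3 or wild type p53 replicate 2 or 3 at 6 h was left out, and the number of members lower was then 0. TICRR, at 38.0, 41.6 and 42.5 CPM with GFP and at 40.9, 36.6 and 41.6 CPM with wild type p53, overlapped fully at this time.

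The difference between the effects of wild type p53 at 24 h and at 6 h was itself tested by an interaction term. It was negative for 15 members and positive for 1, ORC4, against 2.77% and 3.73% of all genes. The largest negative terms were those of TICRR (−0.91 ± 0.18 SE, edgeR adjusted p = 0.0031), ORC6 (−0.74), CDC6 (−0.72) and MCM10 (−0.68). ORC4's term was 0.63 ± 0.17 (SE, edgeR adjusted p = 0.023), and it was lost without wild type p53 replicate 1 or 2 or GFP replicate 1 at 24 h, or without GFP replicate 1 or wild type p53 replicate 1 or 3 at 6 h, which left 0 members with a positive term. For PCNA, LIG1, GINS4 and GMNN the terms were 0.21, 0.10, −0.18 and 0.04, and none was called. With the replicate numbers of each time as a block, which the 24 h libraries share, 33 members had a negative term. Of the 21335 genes tested, 1843 had a negative term with that block and 2054 a positive one.

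**Figure D3:**
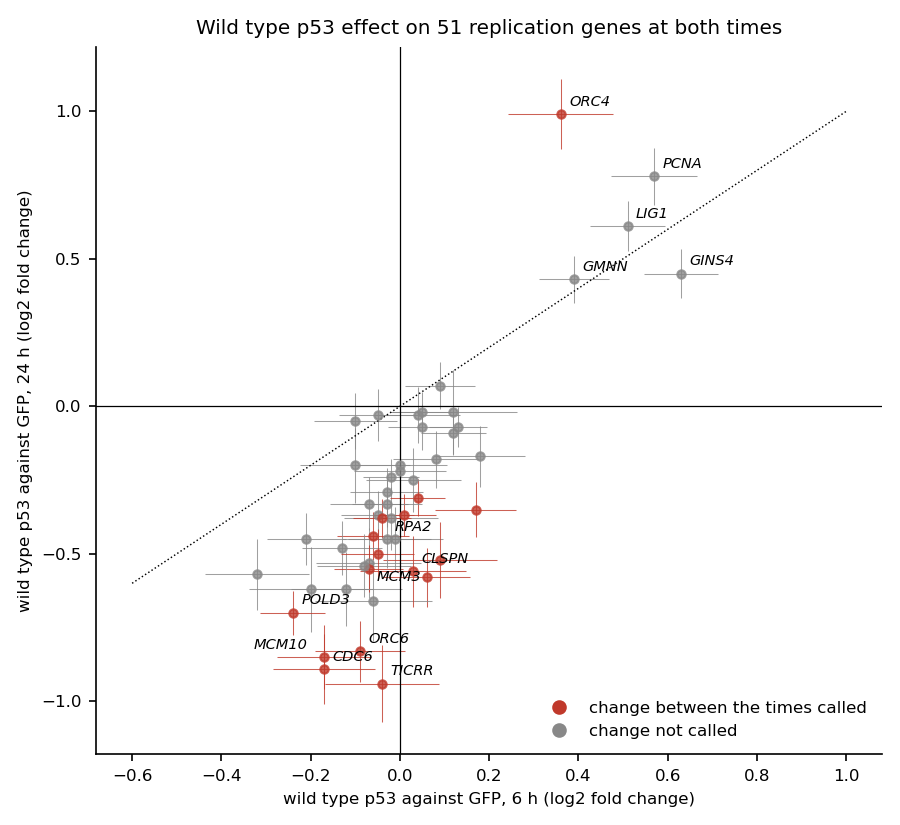
Log2 fold change of wild type p53 against GFP at 6 h (x axis) and at 24 h (y axis) for the 51 members, with standard errors as bars and equality as the dotted line. Red points are the 16 members whose effect differed between the times by the fit without the replicate block. PCNA, LIG1, GMNN and GINS4 are above 0 on both axes, and TICRR, CDC6, MCM10 and ORC6 lie near 0 at 6 h and far below it at 24 h.

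No member was called with RW mutant p53. At 24 h and at 6 h 0 members were called against GFP with edgeR and 0 with DESeq2's Wald test, and 0 had an unadjusted p under 0.05. Over all genes 0.00469% were called at each time, which is 1 gene. The log2 fold changes at 24 h lay between −0.08 and 0.15. CDC6 was at 66.1, 87.0 and 65.2 CPM with RW mutant p53, ORC4 at 71.9, 75.0 and 66.3 CPM, and PCNA at 156, 208 and 191 CPM, all overlapping GFP.

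The p53 O6-meG vector without O6-bzG acted on the same 5 genes upward. At 24 h it lowered 26 members and raised ORC4, GMNN, GINS4, PCNA and LIG1, against 11.3% and 18.1% of all genes, and it was compared with the same GFP libraries as wild type p53. Its median over the members was −0.22. PCNA was at 314, 336 and 302 CPM, ORC4 at 134, 129 and 96.4 CPM and CDC6 at 34.9, 43.5 and 48.2 CPM. Without p53 O6-meG replicate 1 at 24 h, the number of members lower was 15.

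Against wild type p53 directly, 0 members were called for p53 O6-meG at 24 h with edgeR, 5 had an unadjusted p under 0.05, all higher, and 0 were called with DESeq2. Of all genes 0.00937% were called. At 6 h p53 O6-meG raised the same 4 members as wild type p53 against GFP and lowered none, against 4.32% and 0.53% of all genes. PCNA was at 449 and 398 CPM and GINS4 at 79.4 and 75.4 CPM in the 2 libraries of that group. If the 2 contradictory libraries are placed by their genotype field, against which their CDKN1A levels lie, 1 member is higher, and by the first part of the title 6 are. With DESeq2's Wald test the share of all called genes that were higher went from 89.1% to 78.1%.

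In p53 TM the fit without the replicate block called falls at 24 h for fewer members than with wild type p53. By replicate number, however, 40 members lay below GFP in every pair with p53 TM, and 37 with wild type p53. Against GFP 10 members fell (MCM3, MCM10, ORC6, CDC6, CDT1, DBF4, TOPBP1, POLD3, POLE2 and CHAF1A) and 3 rose (GINS4, PCNA and LIG1), when 1.68% of all genes were lower and 9.0% were higher. The members' median was −0.21. This count depended on the fit. With DESeq2's size factors in edgeR 23 members fell, and the share of all called genes that were higher went from 84.3% to 71.3%. With the replicate block within each time 32 members fell and 5 rose, against 1417 and 3203 of the 21335 genes tested. Without p53 TM replicate 1 at 24 h only 2 fell and without GFP replicate 2 only 5. Without p53 TM replicate 3 there were 17. Without wild type p53 replicate 1 there were 18, although that library is in neither group compared.

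The ligase and the clamp stayed high in p53 TM. LIG1 was at 89.6, 86.8 and 80.3 CPM, a rise of 0.69 ± 0.085 over GFP (log2, SE, edgeR adjusted p = 2.1e-06). PCNA was at 265, 257 and 246 CPM, a rise of 0.57 ± 0.096 (log2, SE, edgeR adjusted p = 0.00015). GINS4 was at 68.4, 59.9 and 57.9 CPM, a rise of 0.44 ± 0.083 (log2, SE, edgeR adjusted p = 0.00056). In all 3 genes, taken because they were called higher, every p53 TM library was above every GFP library. The share of all genes so separated was not counted. ORC4, at 99.9, 86.9 and 73.6 CPM (0.36, edgeR adjusted p = 0.052), and GMNN, at 103, 97.5 and 95.0 CPM (0.19, edgeR adjusted p = 0.16), also lay wholly above GFP but did not pass the test. With the replicate block both were called higher (edgeR adjusted p = 0.0013 and 0.018).

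**Figure D4:**
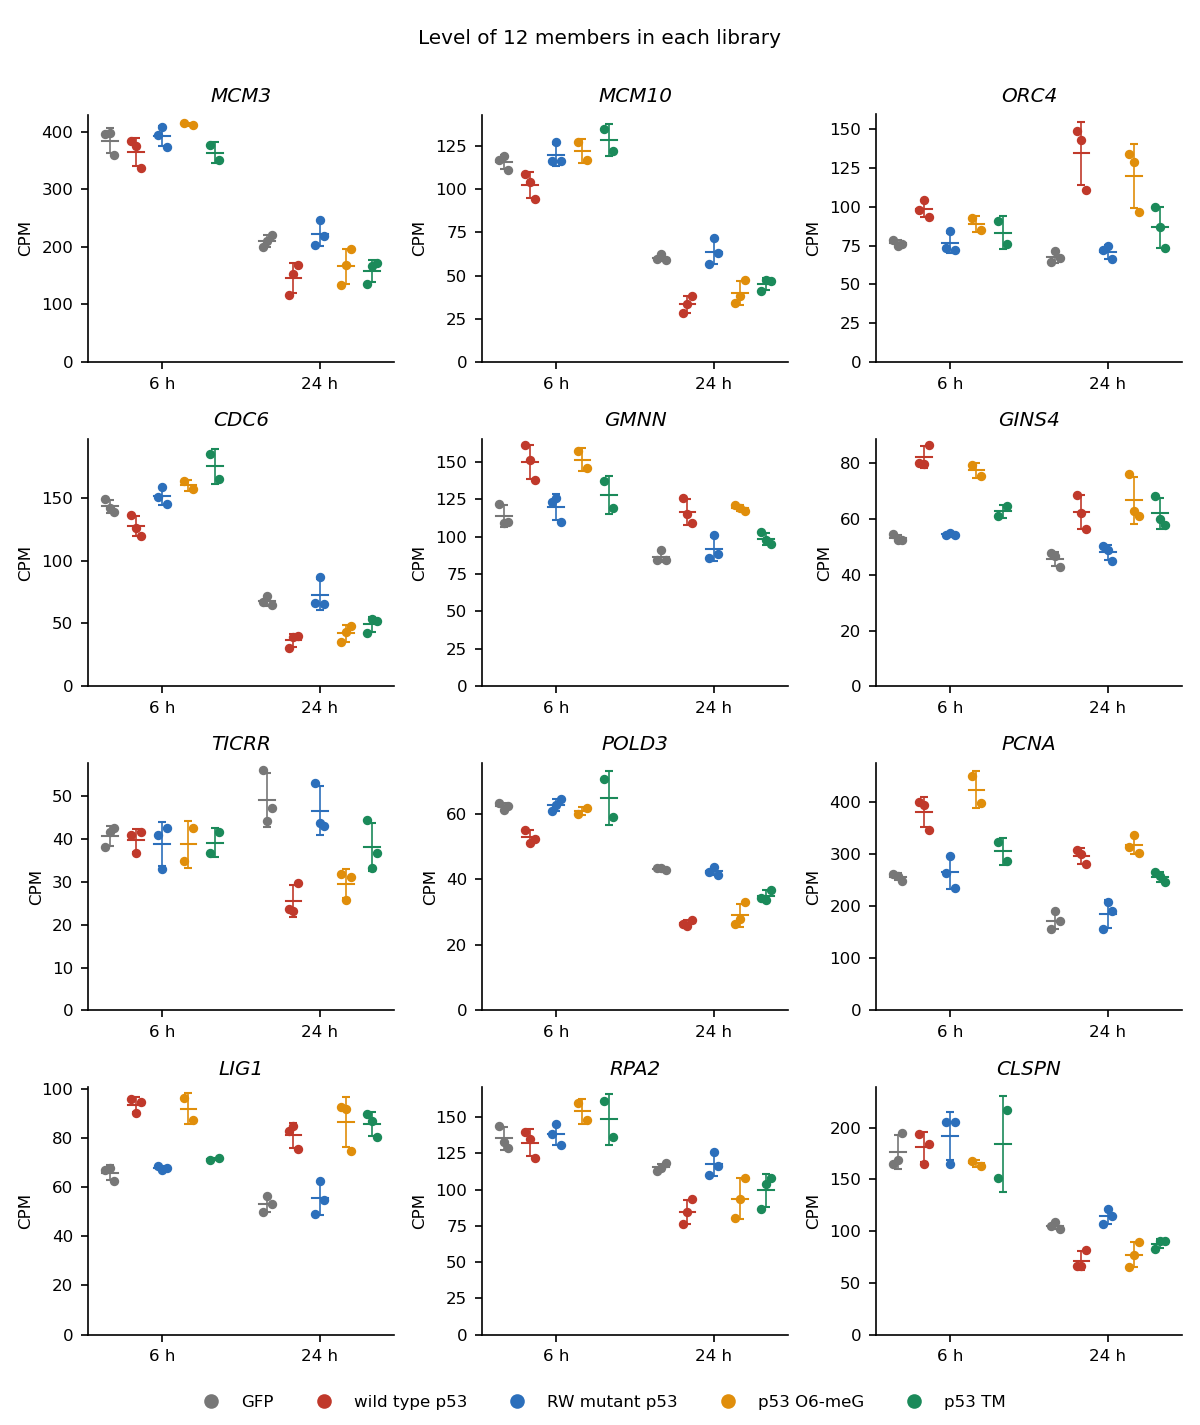
CPM (y axis, from 0) of 12 members in each library at 6 h and at 24 h, coloured by vector, with the mean as a line and the SD as bars; the 2 libraries with contradictory labels are left out. ORC4, PCNA, LIG1, GINS4 and GMNN are higher with wild type p53 than with GFP at 24 h, and the other 7 are lower.

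p53 TM and wild type p53 were also compared directly at 24 h. Of the members 11 were higher in p53 TM (MCM10, ORC3, ORC6, CDC6, CDC45, TICRR, TOPBP1, POLD3, POLE, RFC3 and RFC5) and 2 were lower (ORC4 and GMNN), against 9.29% and 11.9% of all genes. In 14 members every p53 TM library lay above every wild type library, as in 14.9% of all genes, and in 3 (ORC4, GMNN and PCNA) every one lay below, as in 14.8%. CDKN1A differed by −0.77 ± 0.15 (log2, SE, edgeR adjusted p = 0.00074) between the groups, and its part in the members' differences was not tested.

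This comparison and that of wild type p53 with GFP use the same wild type libraries. TICRR was at 44.3, 33.3 and 36.6 CPM in p53 TM, all above its wild type libraries (log2 difference 0.58 ± 0.13 SE, edgeR adjusted p = 0.0022). ORC6 was at 47.3, 45.4 and 50.1 CPM (0.49 ± 0.10, edgeR adjusted p = 0.0012) and CDC6 at 42.4, 53.7 and 52.1 CPM (0.44 ± 0.12, edgeR adjusted p = 0.0092). ORC4 differed most in the other direction, by −0.63 ± 0.12 (SE, edgeR adjusted p = 0.00045). Taken by replicate number, the ORC4 differences were −0.57, −0.72 and −0.59, and those of POLD3, a polymerase delta subunit, were 0.38, 0.38 and 0.41. LIG1 and GINS4 differed by 0.08 ± 0.084 and −0.01 ± 0.083 (log2, SE, edgeR adjusted p = 0.58 and 0.96), and PCNA by −0.21 ± 0.096 (edgeR adjusted p = 0.13).

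These counts also moved with single libraries and with the block. With the replicate block within each time 25 members were higher and 5 lower in p53 TM, against 3579 and 4308 of the 21335 genes tested. PCNA was among the lower members (edgeR adjusted p = 0.016). The number higher was 5 without wild type p53 replicate 1, 7 without wild type p53 replicate 2, 6 without p53 TM replicate 2 or 3, and 20 without wild type p53 replicate 3, and the number lower was 1 without wild type p53 replicate 1 or 2 or p53 TM replicate 2 or 3.

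Against p53 O6-meG, which is the same vector without O6-bzG, p53 TM at 24 h was lower for ORC4 (−0.46), PCNA (−0.31) and GMNN (−0.27) and higher for POLD3 (0.27). Over all genes 6.58% were lower and 3.47% higher, and the members' shares did not exceed these. With the block 6 members were lower and 6 higher, against 3232 and 2160 of the 21335 genes tested. Without p53 O6-meG replicate 2 or p53 TM replicate 3 the number lower was 0, and without p53 O6-meG replicate 1 or p53 TM replicate 2 it was 1. POLD3's call was lost without p53 O6-meG replicate 1 or 2 or p53 TM replicate 3, which left 0 members higher. The number higher was 2 or 3 without GFP replicate 1 or wild type p53 replicate 1, 2 or 3 at 24 h. It was also 2 or 3 without p53 O6-meG replicate 3 at 24 h. Leaving out wild type p53 replicate 1 or RW mutant p53 replicate 1, 2 or 3 at 6 h did the same. So did leaving out p53 TM replicate 1 or 3 at 6 h. The 6 h libraries are in neither group compared.

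At 6 h, where p53 TM had 2 libraries in the fit, 0 members were called against GFP with edgeR (6 had an unadjusted p under 0.05, all higher), and 0 with DESeq2. Of all genes 0.202% were called. The 5 genes that wild type p53 raised at 24 h were at 61.2 and 64.5 CPM for GINS4, at 71.1 and 71.7 CPM for LIG1, at 324 and 287 CPM for PCNA, at 137 and 119 CPM for GMNN and at 90.6 and 75.7 CPM for ORC4. Of these, GINS4, LIG1 and PCNA lay above all 3 GFP libraries of that time, and the share of all genes that did so was not counted.

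Against wild type p53 at 6 h, p53 TM was lower for GINS4 and LIG1 (both −0.39) and higher for ORC1, ORC6, CDC6, GINS3 and POLD3 (0.29 to 0.46), against 8.14% and 2.77% of all genes. DESeq2's size factors in edgeR moved the share of higher calls over all genes from 25.4% to 36.7%. Without p53 TM replicate 1 no member was called, without p53 TM replicate 3 the number lower was 1, and without wild type p53 replicate 2 or 3 the number higher was 1. If the contradictory libraries are placed by the first part of the title, 3 members are lower and 7 higher. By the genotype field, against which their CDKN1A levels lie, the counts are 0 and 0.

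The replication genes also changed between the times without any p53. In GFP cells 43 of the 51 members were lower at 24 h than at 6 h and 0 were higher with edgeR (1 had an unadjusted p under 0.05, and DESeq2 called 1), against 22.3% lower and 19.0% higher over all genes. The members' median was −0.53. CDC6 fell by 1.08 ± 0.12 (log2, SE, edgeR adjusted p = 1.2e-07), from 149, 142 and 139 CPM at 6 h, and CDC7 by 1.04 ± 0.14 (edgeR adjusted p = 2.8e-06), from 69.4, 68.9 and 72.8 CPM to 30.6, 35.7 and 36.2 CPM. These were the only members with a fall of 2-fold or more.

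Some genes that moved with wild type p53 moved little with time, and the reverse. TICRR stood at 0.27 ± 0.13 between the times in GFP cells, ORC6 at −0.19 ± 0.10, ORC4 at −0.18 ± 0.12 and DBF4 at −0.16 ± 0.088 (log2, SE), and none of these was called. MCM4, which was not called with wild type p53 at 24 h with or without the block, fell with time by 0.77. RW mutant p53 cells gave 41 members lower and 0 higher with edgeR (0 also with DESeq2, and 0 with an unadjusted p under 0.05), against 21.2% and 18.8% of all genes. Time and the handling of the cultures collected at each time cannot be told apart.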

How the data were processed

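Total RNA of sorted GFP-positive H1299 cells was sequenced after rRNA depletion. The authors aligned single reads to hg38 with STAR 2.5.3a and deposited raw read counts per gene, counted with featureCounts (Subread 1.5.2) on GENCODE genes. The strand setting of the counting was not given in the sources used here. A second deposited table of normalized counts was not used here.

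Groups follow the submitters' labels, and 2 libraries at 6 h with contradictory labels were left unassigned. Genes were filtered by filterByExpr, leaving 21335, and 28 libraries in 10 groups were fitted together with edgeR 4.0.16 (R 4.3.3, TMM, quasi-likelihood test). The adjustment of p was that of Benjamini and Hochberg across the 21335 genes, and a gene was called at an adjusted p under 0.05. Levels are CPM on TMM library sizes. Standard errors come from the log2 fold change and its F statistic. The study describes the 3 libraries of a group as biological replicates. Over 26 pairs of libraries within groups, counts differed beyond sampling noise (chi-square per degree of freedom 5.65 to 43.8).

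At 24 h, residuals of all 30 pairs of libraries with the same replicate number in different groups correlated above 0.1, from 0.182 to 0.612. Their median was 0.422. Libraries of unlike numbers had a median of −0.277, which is no separate evidence. Residuals were taken from each group's mean, so a positive correlation of like numbers pulls that of unlike numbers below 0. These libraries are therefore treated as paired and the blocked value is given where it changes a result. At 6 h 5 of 9 pairs with the same number correlated above 0.1 (−0.000582 to 0.219, median 0.125). Of 18 pairs with unlike numbers 1 did, and their median was −0.0488. The p53 O6-meG and p53 TM libraries were left out of the check at 6 h. These correlations were weaker than at 24 h and do not settle whether the 6 h libraries are paired.

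Members and lists were chosen with earlier results of these data known. Values in every library are given for members changed 2-fold and called, or called higher, with wild type p53 at 24 h, for the member of each role with the largest change there, and for PCNA. ORC6, CDC7 and the values of further members were added after their values were seen. The alternatives tried were the Wald test of DESeq2 1.42.0, its size factors within edgeR, no filter beyond 1 count, a minimum of 10 counts throughout, only the groups compared, a replicate block over both times or within each time, both placements of the contradictory libraries, and each library left out. The scripts were tested on simulated data. The check of 1 further gene is not reported here.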

Additional observations from a re-analysis of the deposited data

Results flagged for a closer look

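The effect of wild type p53 against GFP differed between 24 h and 6 h for 16 members. This was by the interaction term of the edgeR fit without the replicate block (adjusted p under 0.05 over all genes). The log2 differences, effect at 24 h minus effect at 6 h, were −0.62 for MCM6, −0.39 for MCM8, −0.68 for MCM10, −0.74 for ORC6, −0.72 for CDC6 and −0.65 for CDC45. They were −0.51 for GINS1, −0.91 for TICRR, −0.48 for TOPBP1, −0.35 for POLA1, −0.46 for POLD3 and −0.38 for POLE, and −0.34 for RFC5, −0.45 for CHAF1A and −0.59 for CLSPN. ORC4 alone had a positive difference, 0.63.

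The 2 libraries at 6 h with contradictory labels, which enter no comparison of the report, held the 4 early risers above every GFP library of that time. The share of all genes that did so was not counted. In the library whose title begins as p53 TM and whose genotype field reads p53 O6-meG, GMNN was at 137 CPM, GINS4 at 62.5 CPM, PCNA at 322 CPM and LIG1 at 69.1 CPM. In the library whose title begins as p53 O6-meG and whose genotype field reads p53 TM, GMNN was at 155 CPM, GINS4 at 84.8 CPM, PCNA at 455 CPM and LIG1 at 97.1 CPM.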

How the results depend on the processing

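The counts for wild type p53 against GFP at 24 h were 31 to 33 lower and 5 higher with each library left out, and RW mutant p53 called 0 members under every alternative run. Other counts moved by over 1.5 times. With DESeq2's size factors in edgeR, members lower were 2 for wild type p53 at 6 h and 23 for p53 TM against GFP at 24 h, and members higher were 8 for p53 TM against wild type p53 at 6 h and 1 between the times in GFP. With DESeq2's Wald test these were 3, 27, 8 and 1, and 2 members were higher in p53 TM than in p53 O6-meG. Testing every gene with at least 1 count gave 0 lower for wild type p53 at 6 h, 1 lower for p53 TM against wild type p53 at 24 h, 1 lower and 2 higher against p53 O6-meG, and 1 higher between the times in GFP. At least 10 counts in every library gave 20 lower for p53 TM against GFP at 24 h and 1 higher between the times. Fitting only the groups compared gave 6 lower for wild type p53 at 6 h, 1 lower and 3 higher for p53 TM against wild type p53 at 24 h, 0 and 0 against p53 O6-meG, 10 higher for p53 TM against wild type p53 at 6 h and 1 higher between the times.

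With the replicate block over both times, members lower were 18 for p53 TM against GFP at 24 h, and members higher were 18 for p53 TM against wild type p53, 3 against p53 O6-meG, and 1 between the times in GFP and in RW mutant p53. With the replicate block within each time, members lower were 3 for wild type p53 at 6 h, 33 for the change of its effect, 32 for p53 TM against GFP, 5 against wild type p53 and 6 against p53 O6-meG at 24 h, and 5 against wild type p53 at 6 h. Members higher with that block were 16 for p53 O6-meG at 6 h, 5 and 2 for p53 TM against GFP at 24 h and 6 h, 25 against wild type p53 and 6 against p53 O6-meG at 24 h, and 10 against wild type p53 at 6 h. Of the 21335 genes tested at 6 h, that block called 1067 lower for wild type p53 and 2590 higher for p53 O6-meG. For p53 TM at 6 h it called 206 genes higher against GFP, and 3031 lower and 1468 higher against wild type p53. The block moved no other count of members by over 1.5 times. Placing the contradictory libraries by genotype field gave 0 lower for wild type p53 at 6 h, 1 higher for p53 O6-meG at 6 h, 1 lower for p53 TM against p53 O6-meG at 24 h, and 0 and 0 for p53 TM against wild type p53 at 6 h, and placing them by the first part of the title gave 2 higher for p53 TM against p53 O6-meG. In all these the cause was not tested.

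Leaving out each library in turn, members lower ranged from 0 to 2 for wild type p53 at 6 h, 15 to 30 for p53 O6-meG at 24 h, 2 to 18 for p53 TM against GFP at 24 h, 1 to 2 for p53 TM against wild type p53 at 24 h, 0 to 3 for p53 TM against p53 O6-meG and 0 to 3 for p53 TM against wild type p53 at 6 h. Members higher ranged from 0 to 1 for the change of the wild type p53 effect, 5 to 20 for p53 TM against wild type p53 at 24 h, 0 to 3 against p53 O6-meG, 0 to 7 at 6 h, and 0 to 1 between the times in GFP. A group left with 1 library was assumed to vary like the others. GINS4, whose difference between p53 TM and wild type p53 at 24 h was −0.01 and not called, was 0.03 over every gene with at least 1 count and −0.08 to 0.08 with single libraries left out. Depth did not limit the members, none of which had under 450 reads in a library.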
